A study of Mus musculus with 6 samples.

Results

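The genes described here are 10 genes of pericellular proteolysis: 6 matrix metalloproteinases (Mmp8, Mmp9, Mmp12, Mmp13, Mmp14 and Mmp19), the inhibitors Timp1 and Timp2, urokinase (Plau) and the urokinase receptor (Plaur). They were chosen by gene name from a table of 55401 genes, with earlier results of these data known. The cells were mouse macrophages, the phagocytes of most tissues, differentiated in culture from bone marrow, and their total RNA was sequenced after ribosomal RNA had been removed. Cells had been cultured for 7 days in medium holding supernatant of L929, a mouse fibroblast line that secretes the macrophage growth factor M-CSF. In the L-OHP+FUC group, 3 samples were given fucoidan (250 µg/ml, 12 h), a sulfated sugar polymer from brown seaweed, and then L-OHP at 5 µM for 12 h. In the L-OHP group, 3 samples received the same L-OHP exposure without fucoidan. L-OHP commonly stands for oxaliplatin, a platinum compound used in chemotherapy. Both groups carry the drug, so each difference is between drug-exposed macrophages with and without prior fucoidan, and the labels give neither strain nor age of the mice. The comparison asks what fucoidan did to the macrophages in a series on neutrophil extracellular traps and nerve damage after chemotherapy. Whether replicates came from separate cultures or animals is not stated in the labels. The p-values therefore reflect the spread among these 6 samples alone, and that spread may be technical.

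Matrix metalloproteinases are zinc-dependent enzymes made as inactive precursors, and together they cut collagens, elastin, gelatin and many secreted signals. Most are secreted and Mmp14 sits in the plasma membrane, while the TIMP proteins block the active site of the enzymes. Urokinase is a secreted serine protease that converts plasminogen to plasmin, and its receptor, anchored to the cell surface by a lipid, holds it there. Macrophages are a known source of enzymes, inhibitors and receptor alike, and Mmp12 is also called macrophage elastase.

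Expression was given as FPKM, fragment counts scaled to transcript length and library size, which can be compared between genes. The files give no counts, and a rough depth read from the steps between low values was 15700000 to 18400000 fragments in L-OHP+FUC and 16400000 to 18600000 fragments in L-OHP. Values listed for the 3 samples of a group are in the order of replicates 1 to 3. Macrophage markers were high in every library, with a summed level of 13620 to 14610 FPKM over 9 markers in L-OHP+FUC and of 12660 to 18010 FPKM in L-OHP, most of it Lyz2. Of the 9, the growth factor receptor Csf1r rose (578 ± 43.3 FPKM with L-OHP+FUC and 418 ± 26.3 FPKM with L-OHP, limma adjusted p = 0.0233). The receptor kinase Mertk (29.9 ± 0.775 FPKM with L-OHP+FUC and 50.5 ± 2.82 FPKM with L-OHP, adjusted p = 0.00432) and the Fc receptor Fcgr1 (89.0 ± 5.11 FPKM with L-OHP+FUC and 146 ± 32.1 FPKM with L-OHP, adjusted p = 0.0268) fell (SD, n = 3 each), and 6 did not pass. The part of these shifts in the values of the 10 genes was not tested. Of the 11 neutrophil markers, Ly6g, Cxcr2 and Retnlg were listed at 0 in all 6 libraries and Mpo reached at most 0.0158 FPKM. Their summed level, mostly that of the receptor gene Csf3r, was 57.4 to 65.0 FPKM in L-OHP+FUC and 62.0 to 65.5 FPKM in L-OHP.

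Promoter windows from RefSeq (GRCm38.p6, 250 bases before to 50 after an annotated start) were at hand for 7 of the 10 genes, Mmp8, Mmp12 with 2 starts, Mmp13, Mmp14, Timp1, Timp2 and Plaur. Of these 8 windows, 4 are shown: 1 for each member of the chromosome 9 array of MMP genes, with the second start of Mmp12, and that of Plaur, the member with a window whose fold change was highest. Capitals mark the AP-1 motif TGANTCA, where N is any base, searched on both strands, which for these letters are the same.
Mmp13, plus strand, chr9:7272264-7272563: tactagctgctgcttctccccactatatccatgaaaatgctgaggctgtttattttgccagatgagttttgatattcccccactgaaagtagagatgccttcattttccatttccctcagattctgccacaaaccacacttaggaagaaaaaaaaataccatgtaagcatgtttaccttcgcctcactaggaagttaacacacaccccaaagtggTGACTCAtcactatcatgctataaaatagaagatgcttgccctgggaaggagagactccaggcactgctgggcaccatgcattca
Plaur, plus strand, chr7:24462233-24462532: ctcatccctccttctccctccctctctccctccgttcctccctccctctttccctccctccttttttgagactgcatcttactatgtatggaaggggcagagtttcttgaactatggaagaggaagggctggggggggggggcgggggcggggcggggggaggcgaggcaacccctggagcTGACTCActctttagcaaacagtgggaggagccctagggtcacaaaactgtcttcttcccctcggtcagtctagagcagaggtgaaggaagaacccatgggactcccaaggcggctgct
Mmp12, second start, plus strand, chr9:7347124-7347423: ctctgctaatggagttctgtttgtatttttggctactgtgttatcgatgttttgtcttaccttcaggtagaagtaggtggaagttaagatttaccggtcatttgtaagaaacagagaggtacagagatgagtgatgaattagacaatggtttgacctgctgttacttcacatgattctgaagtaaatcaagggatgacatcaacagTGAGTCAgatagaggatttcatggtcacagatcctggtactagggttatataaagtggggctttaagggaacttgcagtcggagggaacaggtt
Mmp8, plus strand, chr9:7558179-7558478: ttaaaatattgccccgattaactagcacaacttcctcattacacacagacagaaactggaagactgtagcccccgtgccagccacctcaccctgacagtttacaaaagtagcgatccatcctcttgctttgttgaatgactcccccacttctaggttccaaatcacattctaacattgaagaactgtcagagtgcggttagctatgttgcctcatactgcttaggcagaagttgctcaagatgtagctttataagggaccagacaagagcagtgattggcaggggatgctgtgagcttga

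The motif began at position -35 in Mmp13, at -69 in Plaur and at -44 at the second start of Mmp12, where the annotated start is 0. It was in 3 of the 8 windows, and in 7.81% of all 32851 windows of that length. The window of the first Mmp12 start held neither this nor the TATA motif. The TATA motif TATAAA, searched on both strands and without overlap with the AP-1 matches, began at -16 in Mmp13, at 4 at the second start of Mmp12 and, on the minus strand, at -3 in Mmp8, against a share of 13.6% of all windows. The cAMP response element TGACGTCA (1.79% of all windows) and the NF-kB consensus (4.51%) were in none of the 8 windows. A match is a string of letters in the reference and not a measured site.

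Among the 10 genes, Mmp9, Plaur and Mmp13 rose in macrophages given fucoidan before the drug, none fell, and 7 did not pass the test. Of the genes below their L-OHP mean, Plau alone had an unadjusted p under 0.05 (0.030, limma). The gelatinase Mmp9 was 2.49 times, the urokinase receptor Plaur 1.99 times and the collagenase Mmp13 1.55 times its L-OHP level in mean FPKM. All 10 genes had at least 0.5 FPKM in at least 3 libraries and so were tested, with limma on log2(FPKM + 1) across 12084 genes and an adjusted p under 0.05 as the threshold. Over all tested genes, 7.67% passed as higher, 19.3% as lower and 27.0% in either direction, and the median log2 fold change was -0.10, against 0.14 over the 10 genes. That excess of lower calls, 927 higher and 2335 lower, varied with the setting. Among the 5917 genes with a mean of at least 5 FPKM, without rescaling, 754 were higher and 966 lower. Calls became 1581 and 1680 after median ratio rescaling, 1565 and 1359 after quantile normalization, and 1390 and 1437 after adjusting for GC content and length. The median of all tested genes became -0.0067, -0.010, 0.034 and 0.0091 in that order. The 0.14 of the 10 genes is for the main setting only. In Mmp9, Mmp13, Mmp14 and Plaur, 4 of the 10, the libraries of the groups did not overlap, as in 47.0% of all tested genes. All 4 lay higher with L-OHP+FUC, and 16.1% of all tested genes were higher without overlap. In bulk RNA, more RNA per cell and more cells that make it cannot be told apart.

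**Figure D1:**
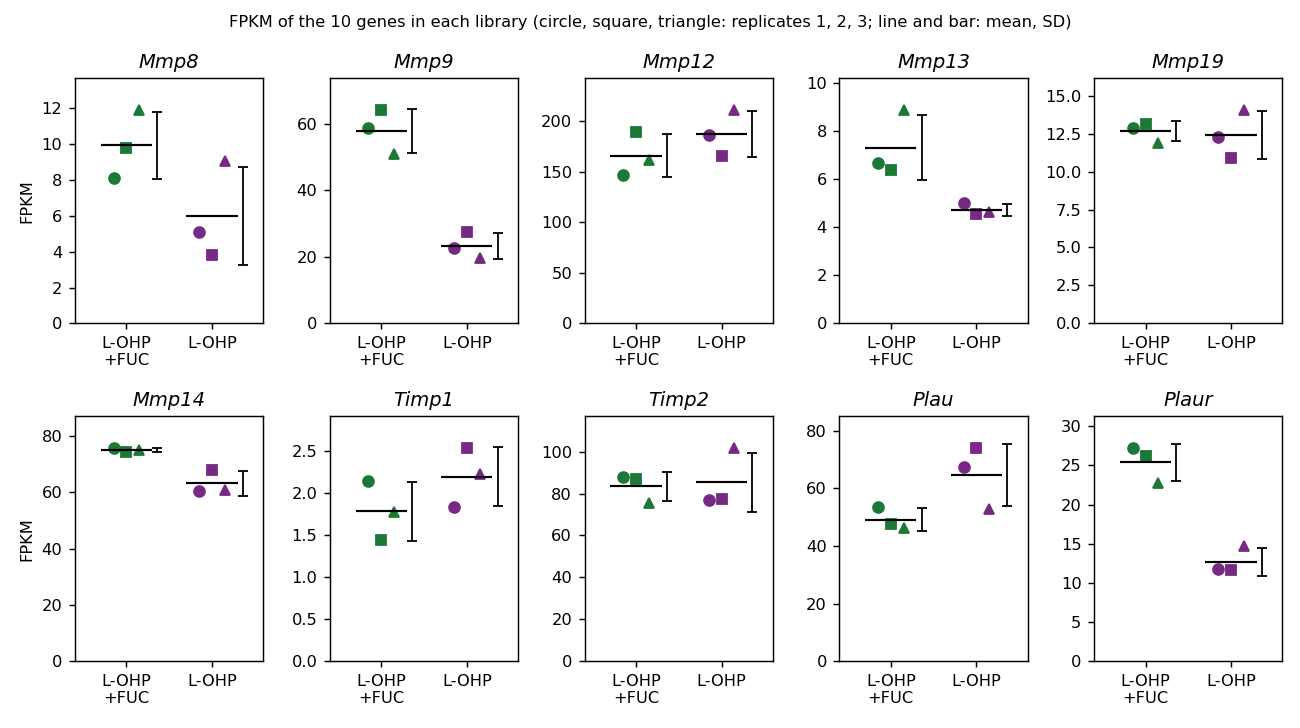
FPKM (y axis, from 0, own scale in each panel) of the 10 genes in each library, with 3 L-OHP+FUC libraries on the left and 3 L-OHP libraries on the right of every panel; symbols mark the replicate, the line is the mean and the bar the SD. Mmp9, Mmp13, Mmp14 and Plaur do not overlap between groups, and in the Mmp8 panel 1 L-OHP library, replicate 3, lies at 9.04 FPKM among the L-OHP+FUC libraries.

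Mmp9, gelatinase B, which degrades denatured collagen and basement membrane collagen, lies on chromosome 2 (164940780 to 164955850, GRCm38, the assembly of mm10). It had 58.7, 64.1 and 50.8 FPKM across the 3 L-OHP+FUC samples, against 22.8, 27.5 and 19.6 FPKM across the 3 L-OHP samples. Every L-OHP+FUC library stood well above every L-OHP library. The means were 57.9 ± 6.67 FPKM with L-OHP+FUC and 23.3 ± 4.0 FPKM with L-OHP (SD, n = 3 each; log2 fold change 1.28, SE 0.15, 95% interval 0.94 to 1.63, limma adjusted p = 0.00436). Among the log2 fold changes of all tested genes this was at the 99.7th percentile. In the authors' deposited table its q-value was 4.80e-12 and it was the only one of the 10 marked significant, a mark that Plaur, with an authors' fold of 1.99, did not carry. The call held in all 15 alternative settings, with log2 fold changes of 1.17 to 1.41 and adjusted p of 0.00399 to 0.0260.

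Mmp8 (7558456 to 7568485) and Mmp13 (7272514 to 7283331), both collagenases that cut fibrillar collagen, and Mmp12 (7344381 to 7369499), the macrophage elastase, lie on chromosome 9 on the same strand among other MMP genes. Mmp13 had 6.66, 6.38 and 8.85 FPKM across the 3 L-OHP+FUC samples, against 5.00, 4.54 and 4.63 FPKM across the 3 L-OHP samples. The 3 L-OHP libraries lay within a narrow band that every L-OHP+FUC library exceeded. The means were 7.30 ± 1.35 FPKM with L-OHP+FUC and 4.72 ± 0.240 FPKM with L-OHP (SD, n = 3 each; log2 fold change 0.52, SE 0.13, 95% interval 0.22 to 0.83, limma adjusted p = 0.0269). The Mmp13 call was lost without L-OHP+FUC replicate 1 or 2 or without L-OHP replicate 1, 2 or 3 (adjusted p = 0.0518 to 0.0663) and without a filter on low genes (0.0611), while leaving out L-OHP+FUC replicate 3 kept it at a log2 fold change of 0.39 (adjusted p = 0.0370). In the authors' deposited table the q-value of Mmp13 was 0.00509.

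Mmp8, best known as the collagenase stored in neutrophil granules, had 8.14, 9.76 and 11.9 FPKM across the 3 L-OHP+FUC samples, against 5.11, 3.81 and 9.04 FPKM across the 3 L-OHP samples. L-OHP replicate 3, the highest of its group, overlapped the L-OHP+FUC libraries. Mmp8 averaged 9.92 ± 1.88 FPKM with L-OHP+FUC and 5.99 ± 2.73 FPKM with L-OHP (SD, n = 3 each), and its log2 fold change of 0.70 (SE 0.27, 95% interval 0.053 to 1.35) did not pass (limma adjusted p = 0.0988). Without L-OHP replicate 3 it was 1.00 (SE 0.18, adjusted p = 0.0245), and adjusting for transcript GC content and length gave 0.87 (SE 0.24, adjusted p = 0.0430). The authors' deposited table gave Mmp8 a q-value of 0.0162. Of the 11 neutrophil markers 3 were tested: 1 rose, none fell and 2 did not pass. The calcium-binding protein gene S100a8 rose, with 3.72, 4.71 and 4.25 FPKM in L-OHP+FUC and 2.41, 2.89 and 2.43 FPKM in L-OHP (limma adjusted p = 0.0162). The more abundant Csf3r averaged 55.0 FPKM in L-OHP+FUC and 59.6 FPKM in L-OHP (adjusted p = 0.347), and Camp averaged 1.24 FPKM in L-OHP+FUC and 0.971 FPKM in L-OHP (adjusted p = 0.675). The granule genes Elane and Ltf reached at most 0.125 and 0.291 FPKM in any library, and the part of neutrophil RNA in the values of Mmp8 and Mmp9 was not tested.

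Mmp12 was the most abundant of the 10 genes in both groups. It had 147, 189 and 162 FPKM across the 3 L-OHP+FUC samples, against 187, 166 and 211 FPKM across the 3 L-OHP samples, and the groups overlapped. The log2 fold change was -0.18 (SE 0.14, 95% interval -0.50 to 0.15, limma adjusted p = 0.365), and it was 0.16 after the correction for GC content and length, also without a call (adjusted p = 0.379). Of the 3 members in the cluster, only Mmp13 passed, and differences between their fold changes were not tested. Of the cluster's other genes, the stromelysin Mmp3 (7445822 to 7455975) had 6.37 to 8.09 FPKM in L-OHP+FUC and 4.35 to 7.19 FPKM in L-OHP (adjusted p = 0.183). Mmp27 had 1.2 to 1.75 FPKM in L-OHP+FUC and 1.44 to 1.64 FPKM in L-OHP (adjusted p = 0.804). Mmp10 reached at most 0.246 FPKM and Mmp1b, Mmp7 and Mmp20 were listed at 0 in every library. Mmp1b overlaps the end of Mmp12 on the opposite strand.

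Mmp14, the membrane-bound enzyme that activates pro-Mmp2 at the cell surface, lies on chromosome 14 (54431612 to 54445364). It had 75.5, 74.4 and 74.9 FPKM across the 3 L-OHP+FUC samples, against 60.5, 68.0 and 60.6 FPKM across the 3 L-OHP samples. The L-OHP+FUC libraries were nearly identical to each other and above every L-OHP library. The log2 fold change of 0.25 (SE 0.08, 95% interval 0.047 to 0.45) did not pass (limma adjusted p = 0.0704). It passed after median ratio rescaling (0.37, adjusted p = 0.0258) and without L-OHP replicate 2 (0.30, adjusted p = 0.0303). Its q-value in the authors' deposited table was 0.0717.

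Mmp19, a secreted enzyme on chromosome 10 (128790910 to 128800824), had 12.9, 13.2 and 11.9 FPKM across the 3 L-OHP+FUC samples, against 12.3, 10.9 and 14.0 FPKM across the 3 L-OHP samples. The groups overlapped fully, with a log2 fold change of 0.031 (SE 0.11, 95% interval -0.23 to 0.29, limma adjusted p = 0.853). Its 3′ end overlaps Tmem198b, at 2.21 to 3.17 FPKM, on the opposite strand, and 789 of its 3533 annotated exon bases are shared. Use of strand in counting is not given in the sources used here, so the Mmp19 level is uncertain by the reads of this stretch.

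Mmp9 made up more, and Mmp12 less, of the MMP transcript in L-OHP+FUC libraries. Mmp9 held 19.0%, 17.9% and 15.9% of the summed FPKM of the 6 MMP genes across the 3 L-OHP+FUC samples, against 7.79%, 9.81% and 6.13% across the 3 L-OHP samples. Mmp12 held 47.6%, 53.0% and 50.6% in L-OHP+FUC, against 63.8%, 59.1% and 66.2% in L-OHP. Neither share overlapped between groups, and both are given as descriptions with no test. The shares depend on each other, since a higher share of Mmp9 lowers that of the other genes. The FPKM of Mmp12 itself overlapped and did not pass (limma adjusted p = 0.365). The sum itself was 309 to 357 FPKM in L-OHP+FUC and 280 to 319 FPKM in L-OHP, so that the ranges overlapped. Mmp14 held 22.9% ± 1.84 of the sum in L-OHP+FUC and 21.3% ± 2.67 in L-OHP (SD, n = 3 each).

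**Figure D2:**
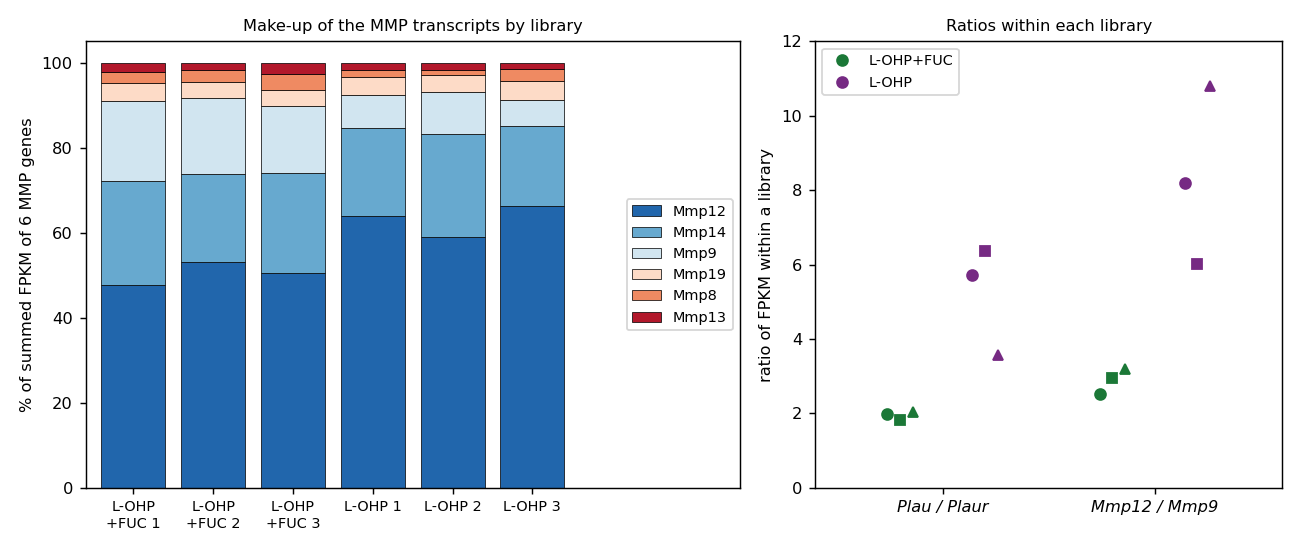
Left, the percentage of the summed FPKM of 6 MMP genes held by each gene, 1 bar per library with L-OHP+FUC first; right, the FPKM ratios of Plau to Plaur and of Mmp12 to Mmp9 within each library, symbols marking the replicate. The ratio of Plau to Plaur lies between 1.82 and 2.04 in L-OHP+FUC and between 3.58 and 6.36 in L-OHP, and that of Mmp12 to Mmp9 between 2.51 and 3.19 in L-OHP+FUC and between 6.02 and 10.8 in L-OHP.

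Neither inhibitor passed the test. Timp2, which inhibits MMPs and also takes part in the activation of pro-Mmp2 by Mmp14, lies on chromosome 11 (118301069 to 118355740). It had 87.7, 87.0 and 75.5 FPKM across the 3 L-OHP+FUC samples, against 77.0, 77.5 and 102 FPKM across the 3 L-OHP samples. L-OHP replicate 3 was again the highest of its group, and the groups overlapped (log2 fold change -0.024, SE 0.13, 95% interval -0.34 to 0.30, limma adjusted p = 0.910). The direction turned to a log2 fold change of 0.10 after median ratio rescaling. In FPKM, Mmp9 stood at 0.693 ± 0.0378 of Timp2 in L-OHP+FUC libraries and at 0.281 ± 0.0821 of it in L-OHP libraries (SD, n = 3 each). The ratio of Mmp14 to Timp2 was 0.855 to 0.992 in L-OHP+FUC and 0.597 to 0.877 in L-OHP. The summed FPKM of the 6 MMP genes over that of Timp1 and Timp2 was 3.44 to 4.15 in L-OHP+FUC and 3.07 to 3.71 in L-OHP. These latter ratios overlapped between groups, and no ratio was tested.

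Timp1, the soluble inhibitor that binds pro-Mmp9, lies on chromosome X (20870166 to 20874735) and was the least abundant of the 10 genes. It had 2.14, 1.44 and 1.78 FPKM across the 3 L-OHP+FUC samples, against 1.83, 2.54 and 2.22 FPKM across the 3 L-OHP samples. These values correspond to about 20.0 to 34.9 fragments in an L-OHP+FUC library and 26.7 to 41.7 in an L-OHP library, from that rough depth and the longest transcript. The groups overlapped (log2 fold change -0.20, SE 0.13, 95% interval -0.52 to 0.12, limma adjusted p = 0.30), and after quantile normalization the log2 fold change was 0.021 (adjusted p = 0.925). Timp1 lies wholly inside Syn1, the gene of the nerve terminal protein synapsin I, on the opposite strand, but the annotated exons of the pair share 0 bases. Syn1 itself rose (log2 fold change 0.85, limma adjusted p = 0.0289). It had 15.7, 13.9 and 12.3 FPKM across the 3 L-OHP+FUC samples, against 7.11, 5.28 and 10.2 FPKM across the 3 L-OHP samples. Whether reads from unspliced Syn1 RNA were counted for Timp1 was not tested.

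The urokinase receptor rose while urokinase itself did not pass. Plaur lies on chromosome 7 (24462484 to 24475968) and had 27.2, 26.2 and 22.7 FPKM across the 3 L-OHP+FUC samples, against 11.8, 11.6 and 14.8 FPKM across the 3 L-OHP samples. The lowest L-OHP+FUC library was still above the highest L-OHP library. Plaur averaged 25.4 ± 2.35 FPKM with L-OHP+FUC and 12.7 ± 1.78 FPKM with L-OHP (SD, n = 3 each; log2 fold change 0.95, SE 0.12, 95% interval 0.66 to 1.24, limma adjusted p = 0.00583). Its q-value in the authors' deposited table was 1.68e-07, and its call held in all 15 alternative settings with log2 fold changes of 0.88 to 1.07.

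Plau lies on chromosome 14 (20836660 to 20843385). It had 53.6, 47.7 and 46.2 FPKM across the 3 L-OHP+FUC samples, against 67.4, 73.8 and 52.9 FPKM across the 3 L-OHP samples. L-OHP replicate 3, the lowest of its group, fell inside the L-OHP+FUC range. The log2 fold change of -0.38 (SE 0.14, 95% interval -0.71 to -0.049) did not pass (limma adjusted p = 0.0849), and the q-value in the authors' deposited table was 0.287. Plau passed as lower without L-OHP replicate 3 (-0.52, SE 0.11, adjusted p = 0.0299) and after quantile normalization (-0.40, adjusted p = 0.0481). Within libraries the FPKM of Plau was 1.97, 1.82 and 2.04 times that of Plaur across the 3 L-OHP+FUC samples, against 5.72, 6.36 and 3.58 times across the 3 L-OHP samples.

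**Figure D3:**
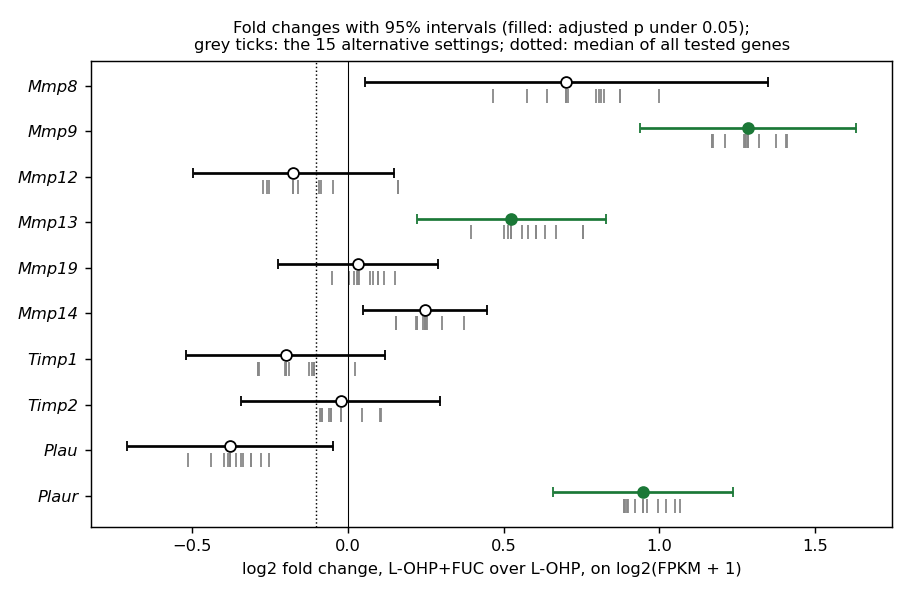
Log2 fold change of L-OHP+FUC over L-OHP on log2(FPKM + 1) (x axis) for each of the 10 genes (rows), with 95% intervals from limma; filled points passed an adjusted p of 0.05, grey ticks are the alternative settings and the dotted line is the median of all tested genes at -0.10. Mmp9, Plaur and Mmp13 are filled, and the intervals of Mmp12, Mmp19, Timp1 and Timp2 cross 0.

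L-OHP replicate 3 was the highest of its group in 5 of the 10 genes (Mmp8, Mmp12, Mmp19, Timp2 and Plaur) and the lowest in Mmp9 and Plau. Averaged over the 10 genes, the log2 deviation from each gene's mean was 0.15, 0.16 and 0.13 across the 3 L-OHP+FUC samples and -0.19, -0.19 and -0.06 across the 3 L-OHP samples. Mitochondrial transcripts held 8.84% to 9.44% of the summed FPKM in L-OHP+FUC, against 7.5%, 5.99% and 9.36% across the 3 L-OHP samples, so that L-OHP replicate 3 lay within the L-OHP+FUC range. Genes at 1 FPKM or more numbered 9841 to 10188 in L-OHP+FUC and 10711 to 10813 in L-OHP, and genes listed at 0 numbered 36343 to 36744 in L-OHP+FUC and 35234 to 35354 in L-OHP, without overlap. The part of these library differences in the member values was not tested. Without L-OHP replicate 3, the log2 fold changes of Mmp9 and Plaur stayed past the threshold.

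By mean level, the order in L-OHP+FUC was Mmp12, Timp2, Mmp14, Mmp9, Plau, Plaur, Mmp19, Mmp8, Mmp13 and Timp1. In L-OHP it was Mmp12, Timp2, Plau, Mmp14, Mmp9, Plaur, Mmp19, Mmp8, Mmp13 and Timp1. Neighbours whose libraries overlapped in FPKM were Mmp9 with Plau and Mmp8 with Mmp13 in L-OHP+FUC, and Plau with Mmp14, Plaur with Mmp19 and Mmp8 with Mmp13 in L-OHP. In L-OHP+FUC, Timp2 averaged 83.4 FPKM and Mmp14 74.9 FPKM. The lowest Timp2 library, replicate 3, and the highest Mmp14 library, replicate 1, were separated by less than the printed precision, at 75.5 FPKM. Mmp9 thus stood beside Plau at 49.2 ± 3.90 FPKM in L-OHP+FUC and well below Plau at 64.7 ± 10.7 FPKM in L-OHP (SD, n = 3 each).

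Beside the 10 genes, 90 genes in 6 further lists of proteases, inhibitors and matrix proteins were looked up, of which 52 were expressed enough to test. Of these 6 passed as higher, 2 as lower and 44 did not pass. Over all tested genes, 7.67% passed as higher and 19.3% as lower. The median log2 fold change was 0.11 over the 52 and -0.10 over all tested genes. The latter was -0.0067 among genes with a mean of at least 5 FPKM and 0.034 after quantile normalization. The 8 calls became 15 after median ratio rescaling, 14 after quantile normalization, 5 without L-OHP+FUC replicate 2 and 13 without L-OHP replicate 2. Among other MMP genes, 4 of 17 were tested and none passed; the gelatinase Mmp2, whose precursor Mmp14 activates, had 1.04 to 1.28 FPKM in L-OHP+FUC and 0.745 to 0.917 FPKM in L-OHP (adjusted p = 0.0931). Mmp28 had 0.624 to 1.22 FPKM in L-OHP+FUC and 0.222 to 0.579 FPKM in L-OHP (adjusted p = 0.0638). With limma, 0 of these 4 thus passed, while both Mmp2 and Mmp28 had an unadjusted p under 0.05 (0.0346 and 0.0195). Both passed as higher after median ratio rescaling (adjusted p = 0.0477 for Mmp2 and 0.0456 for Mmp28) and quantile normalization (0.0149 and 0.0205), and Mmp28 also without L-OHP replicate 2 (0.0442).

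Among other inhibitors, activators and inducers, 2 of 4 tested genes rose and none fell, where 7.67% of all tested genes passed as higher and 19.3% as lower. Lcn2, lipocalin 2, a binder of bacterial iron carriers whose human form also binds MMP9, had 21.0, 29.0 and 29.2 FPKM across the 3 L-OHP+FUC samples, against 12.4, 9.74 and 8.52 FPKM across the 3 L-OHP samples (log2 fold change 1.29, SE 0.18, limma adjusted p = 0.00684). Bsg, basigin, a surface glycoprotein known to induce MMPs in neighbouring cells, had 116, 102 and 99.6 FPKM in L-OHP+FUC, against 74.7, 64.2 and 66.6 FPKM in L-OHP (log2 fold change 0.62, SE 0.10, adjusted p = 0.0103). Neither gene overlapped between groups, which was also so for 47.0% of all tested genes and for 17 of the 52 tested in these lists. The other inhibitors Timp3, Timp4 and Reck reached at most 0.521, 0.0104 and 0.132 FPKM and were not tested. Timp2, at a mean of 83.4 FPKM in L-OHP+FUC and 85.3 FPKM in L-OHP, thus carried nearly all TIMP transcript in these cells. Timp1 averaged 1.79 FPKM in L-OHP+FUC and 2.20 FPKM in L-OHP.

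In the plasminogen system outside Plau and Plaur, 1 of 9 tested genes rose, 1 fell and 7 did not pass. Over all tested genes, 7.67% passed as higher and 19.3% as lower. Plgrkt, a membrane receptor for plasminogen, fell to 3.93, 6.06 and 6.51 FPKM across the 3 L-OHP+FUC samples, against 14.3, 10.6 and 14.3 FPKM across the 3 L-OHP samples (log2 fold change -1.12, SE 0.19, limma adjusted p = 0.0105). Serpinb2, the plasminogen activator inhibitor of type 2, had 1.2 to 1.51 FPKM in L-OHP+FUC and 0.180 to 0.724 FPKM in L-OHP (log2 fold change 0.73, SE 0.16, adjusted p = 0.0185). Its call was lost without a filter (adjusted p = 0.0537) and on leaving out L-OHP+FUC replicate 2 (0.0675). Among the 7 that did not pass, Anxa2 had 109 to 125 FPKM in L-OHP+FUC and 63.2 to 91.4 FPKM in L-OHP (limma unadjusted p = 0.0152, adjusted p = 0.0538). Thbd went the other way, with 2.19 to 2.52 FPKM in L-OHP+FUC and 2.89 to 3.68 FPKM in L-OHP (unadjusted p = 0.0157, adjusted p = 0.0550). Plasminogen itself (Plg) reached at most 0.324 FPKM and the tissue-type activator Plat at most 0.135 FPKM.

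Of 7 tested ADAM and ADAMTS genes, which encode disintegrin metalloproteases, Adam15 rose, Adamts10 fell and 5 did not pass. Over all tested genes, 27.0% passed in either direction. Adam15 had 28.8 to 31.5 FPKM in L-OHP+FUC and 20.4 to 23.9 FPKM in L-OHP (log2 fold change 0.42, limma adjusted p = 0.0194), but its call was lost without L-OHP+FUC replicate 1 or 2 or L-OHP replicate 1 (adjusted p = 0.0651 to 0.0724). Adamts10 stood at 0.641 to 0.673 FPKM in L-OHP+FUC and at 1.6 to 1.74 FPKM in L-OHP (log2 fold change -0.69, adjusted p = 0.00524). Among those that did not pass, Adam8 averaged 129 FPKM in L-OHP+FUC and 94.1 FPKM in L-OHP (limma unadjusted p = 0.0230, adjusted p = 0.0713). Adam10 went the other way, with 20.2 FPKM in L-OHP+FUC and 26.6 FPKM in L-OHP (unadjusted p = 0.0367, adjusted p = 0.0969). With limma, 0 of the 14 tested cathepsins and cystatins passed. The groups did not overlap for the lysosomal aspartic protease Ctsd, as in 47.0% of all tested genes. Ctsd had 5414 to 6197 FPKM in L-OHP+FUC and 3087 to 4621 FPKM in L-OHP (limma unadjusted p = 0.0184, adjusted p = 0.0613). It was the 1 gene of the list with an unadjusted p under 0.05, and it passed as higher in 5 of 15 alternatives (adjusted p = 0.0364 to 0.0439), among them both rescalings and leaving out L-OHP replicate 3. The aminopeptidase Ctsh, next by p, had 45.9 to 58.6 FPKM in L-OHP+FUC and 56.5 to 67.4 FPKM in L-OHP (adjusted p = 0.137).

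Among matrix substrates and matricellular proteins, 2 of 14 tested genes rose, none fell and 12 did not pass. The shares over all tested genes were 7.67% higher and 19.3% lower. Tgm2, a transglutaminase that cross-links matrix proteins, had 50.9, 44.1 and 46.3 FPKM across the 3 L-OHP+FUC samples, against 21.9, 24.8 and 22 FPKM across the 3 L-OHP samples (log2 fold change 1.01, SE 0.09, limma adjusted p = 0.00339). Emilin2, an elastic fibre glycoprotein, had 30.4 to 31.8 FPKM in L-OHP+FUC and 21.2 to 26.1 FPKM in L-OHP (log2 fold change 0.40, adjusted p = 0.0272), and leaving out any library other than L-OHP replicate 2 ended its call (adjusted p = 0.0562 to 0.0914). The fibroblast and stroma markers, 10 genes that include Mmp2 and Mmp3, summed to 15.4 to 17.5 FPKM in L-OHP+FUC and 10.3 to 20.7 FPKM in L-OHP, and none of the 7 tested passed with limma, 1 of them, Mmp2, having an unadjusted p under 0.05. Of the 9 markers of osteoclasts, a cell type known for high Mmp9, 6 were tested: 1 rose, 1 fell and 4 did not pass. The phosphatase Acp5 rose (43.4 to 52.9 FPKM in L-OHP+FUC and 20.9 to 26.4 FPKM in L-OHP, limma adjusted p = 0.00479). The proton pump subunit Atp6v0d2 fell (64.7 to 87.2 FPKM in L-OHP+FUC and 102 to 170 FPKM in L-OHP, adjusted p = 0.0266). Those that did not pass were Ctsk (adjusted p = 0.969), Nfatc1 (0.527), Itgb3 (0.694) and Dcstamp (0.58). The osteoclast genes Calcr, Oscar and Ocstamp reached at most 0.118 FPKM, and the 9 osteoclast markers summed to 161 to 168 FPKM in L-OHP+FUC and 167 to 236 FPKM in L-OHP. The part of such cells in the Mmp9 value was not tested.

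**Figure D4:**
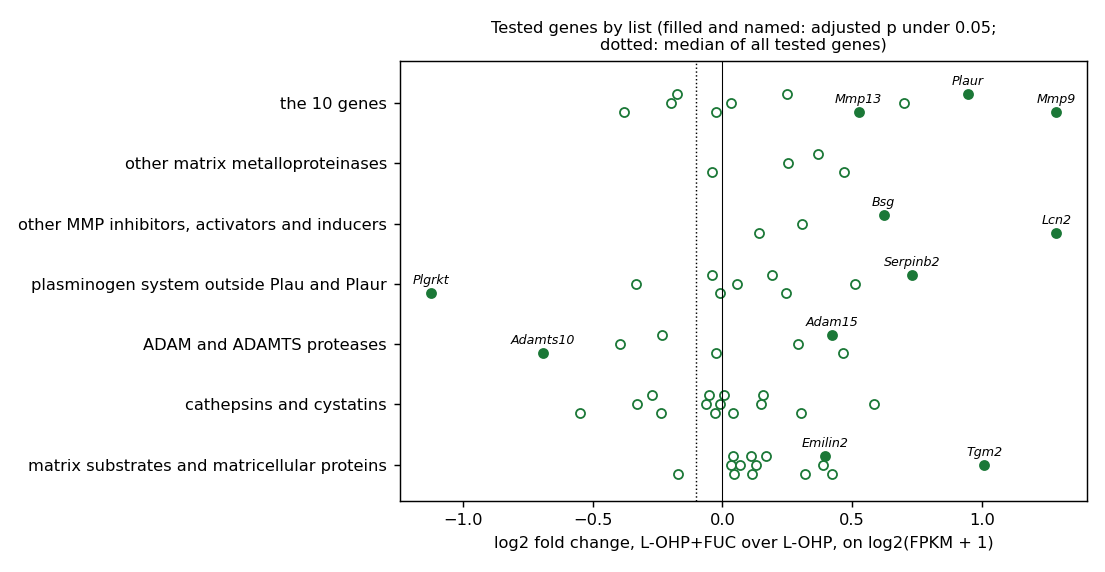
Log2 fold change of L-OHP+FUC over L-OHP on log2(FPKM + 1) (x axis) of every tested gene of the 10 and of 6 further lists (rows), with genes past an adjusted p of 0.05 filled and named. Mmp9, Lcn2, Tgm2 and Plaur lie farthest to the right and Plgrkt farthest to the left.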

How the data were processed

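RNA of 6 samples was sequenced after removal of ribosomal RNA, per the labels' protocols, and samples were grouped by their titles. The deposited table holds the authors' FPKM for each gene in each library; its 0.0001 entries stand for 0 and were set to 0. The authors also deposited a ratio of mean FPKM (fold), its log2 and a p-value and q-value per gene, per the file headers. HISAT2, StringTie, DESeq2, limma, bcl2fastq 2.0 and mm10 are named in the submitters' processing notes without roles. How reads were counted, with or without strand, and on which annotation release, was not given in the sources used here.

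The 12084 genes that reached 0.5 FPKM in 3 or more libraries were tested with limma 3.58.1 (R 4.3.3) on log2(FPKM + 1), which understates changes of low genes, with group as the only term and an intensity trend; tests were two-sided, and Benjamini-Hochberg adjusted p under 0.05 counted as passing. The code was tested on simulated data. Whole reads could not be recovered (19.7% to 21.4% of low values whole within 0.03 reads), so no count test was run. Implied depth is the most frequent value of a single fragment's worth among genes with transcripts of at least 400 bases. It was searched within a preset range, so a depth outside that range could not be found. Coordinates, GC content and overlaps came from GENCODE M21. No library pair shared more than 13 identical values. The members and lists were chosen with earlier results of these data known. In each further list, the genes named by rule were up to 4 past the threshold with the smallest p, or 2 where none passed. Other genes of those lists are named for their role, for an unadjusted p under 0.05 or for their place in the chromosome 9 cluster.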

Additional observations from a re-analysis of the deposited data

How the results depend on the processing

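The calls of Mmp9 and Plaur held in all 15 alternatives. The count of members called higher was 2 to 4 over them, and 2 to 3 when single libraries were left out. Members called lower numbered 1, Plau, after quantile normalization and 0 to 1 when single libraries were left out. Calls over all tested genes, 3262 (927 higher, 2335 lower), became 2081 without a filter, 1720 at a mean of at least 5 FPKM, and 1465 with the GC and length correction plus the replicate block. They ranged from 1101 without L-OHP+FUC replicate 2 to 3377 when single libraries were left out, with 1224 without L-OHP+FUC replicate 1 and 1402 without L-OHP replicate 1. The split became 754 higher and 966 lower at a mean of at least 5 FPKM and 1581 and 1680 after median ratio rescaling. It was 1565 and 1359 after quantile normalization and 1390 and 1437 after the GC and length correction. The median log2 fold change moved from -0.10 to -0.0067 at a mean of at least 5 FPKM and -0.010 after median ratio rescaling. It was 0.034 after quantile normalization and 0.0091 after the GC and length correction. Calls in the other protease lists, 8, became 15 after median ratio rescaling, 14 after quantile normalization and 5 to 13 when single libraries were left out. The log2 fold change of Mmp12 turned to 0.16 with the GC and length correction, alone or with the block, that of Timp1 to 0.021 after quantile normalization and that of Timp2 to 0.10 after median ratio rescaling. Leaving out single libraries gave -0.052 to 0.12 for Mmp19 and -0.092 to 0.11 for Timp2. The cause was not tested for any of these.

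Whether same-numbered replicates were paired is not stated in the labels. The correlation of deviations between same-numbered samples was -0.04, -0.07 and 0.08, and not every sample correlated best with its own number. With 3 libraries per group, this check cannot show whether same-numbered samples shared a culture or batch. With the replicate block, 3 members were higher, 0 lower, 2316 genes passed in all and 6 in the other protease lists. Adam15 and Emilin2 lost their calls with the block (adjusted p = 0.0553 and 0.0603) and with the GC and length correction plus the block (0.0811 and 0.0904). FPKM hold no counts, so no counting interval was computed, and the level of Timp1 rests on few fragments.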

Other observations

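The genes whose level followed that of Mmp9 most closely over the 6 libraries, by Pearson's r of log2(FPKM + 1) and leaving out predicted names, were Nlrp3, Tbc1d9b, Pgd, Vps37c and Cc2d1a (r = 0.999 to 0.996). The libraries fall into 2 treatment groups, so these coefficients mostly restate the difference between groups and are given with no p. Whether libraries shared their handling is not stated in the labels. Nlrp3, the sensor of an inflammasome, had 32.0, 34.0 and 28.8 FPKM across the 3 L-OHP+FUC samples, against 12.5, 14.7 and 10.4 FPKM across the 3 L-OHP samples. Pgd, an enzyme of the pentose phosphate pathway, had 228, 228 and 206 FPKM in L-OHP+FUC, against 129, 138 and 119 FPKM in L-OHP.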
